A study of Homo sapiens with 4 samples.

Results

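The S100 proteins are small calcium-binding proteins with EF-hand loops, and 10 of their genes known from epithelial and tumour cells were examined here: S100A2, S100A3, S100A4, S100A6, S100A8, S100A9, S100A10, S100A11, S100A14 and S100P. They were read from the 13 probe sets of the array that its annotation assigns to exactly 1 of these genes, out of 54675 probe sets and 19775 genes in all. The cells were PC3, an established human line of metastatic prostate cancer, cultured with 10% fetal bovine serum. Every culture received siRNA at 40 nM and was harvested after 48 h. In 1 group the siRNA was a control and in the other it targeted COUP-TFII, an orphan nuclear receptor that regulates transcription, so the comparison asked which transcripts differ when that receptor is knocked down. Each group held 2 arrays. The labels give no siRNA sequence and do not say whether replicates were transfected separately, and p-values therefore cover only array-to-array spread, part or all of which may be technical. Values below are linear probe set intensities as deposited.

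Most S100 genes lie in a row on chromosome 1 beside genes of the epidermal differentiation complex. S100 proteins work mainly as dimers that open a binding surface when calcium rises, and they bind annexins, myosin, ezrin and other partners inside the cell. Some are also secreted and bind receptors such as AGER (RAGE) and TLR4. S100A8 and S100A9 together form calprotectin, an abundant protein of neutrophils that inflamed epithelia also make.

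The 10 genes did not move as one group. S100P, S100A8 and S100A14 rose with COUP-TFII siRNA, and 5 genes did not pass the test (limma over all genes, Benjamini-Hochberg adjusted p below 0.05). S100A9 and S100A6 fell by small amounts, though both were above 0 when arrays were centred on the median of 12 housekeeping genes. S100A6 then passed as higher. That centring added 0.29 to the log2 fold change of every gene and raised the share of higher genes among those called from 55.3% to 88.7%. The median log2 fold change of the 10 was -0.03, against 0.01 for all genes, where the log2 fold change is the difference of the group means of log2(intensity + 16). The 5 genes called are 50% of the 10. Over all 19775 genes 23.1% were called, 12.8% as higher and 10.3% as lower, and over the 2880 genes above an intensity of 1000 in their brighter group it was 52.3%. Of the 10, 6 lay above 1000 and 3 of these were called, S100A14 as higher and S100A6 and S100A9 as lower, beside 24.9% higher and 27.4% lower among all genes of that brightness. The share called among these 6 was near that of bright genes as a whole. For all 10 the groups did not overlap, 5 with both COUP-TFII siRNA arrays higher and 5 with both lower. That was also so for 57.5% of all genes and 80.5% of those above 1000. Of the 13 probe sets it held for 12, and for 50.4% of all probe sets.

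**Figure D1:**
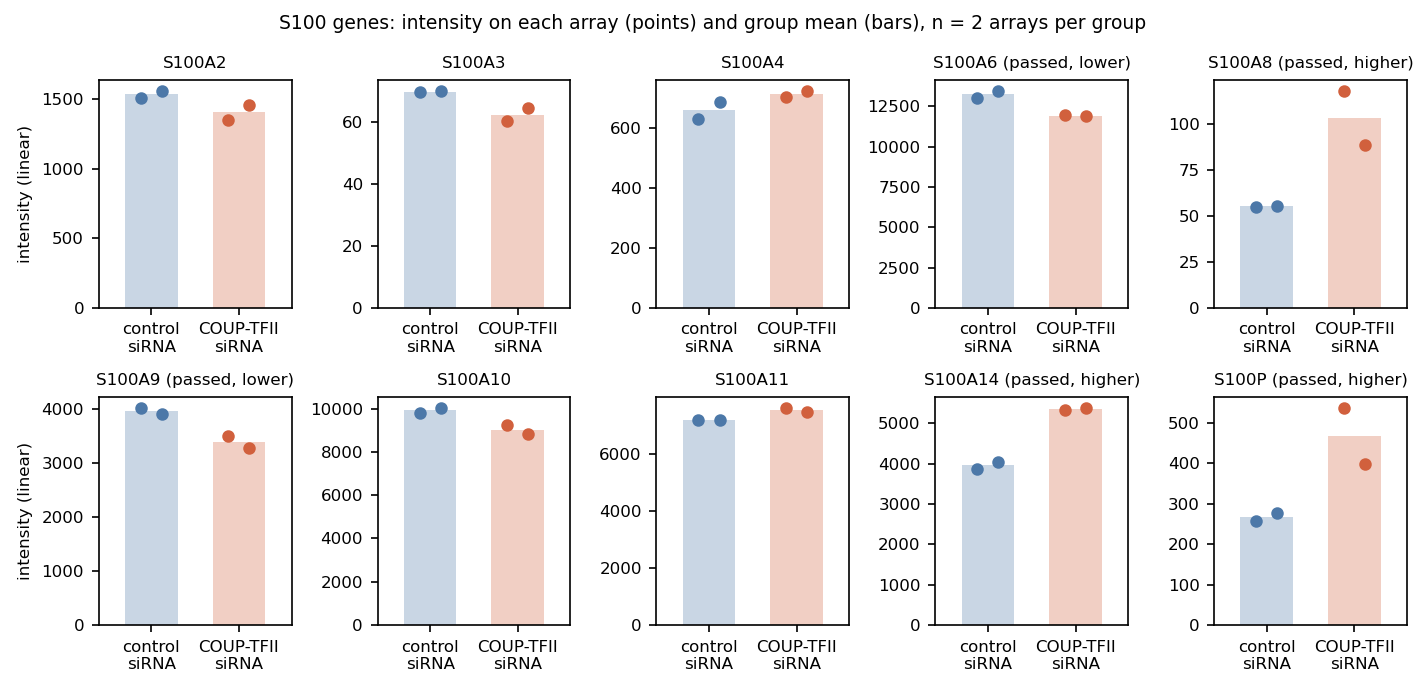
Intensity of each S100 gene on the 4 arrays (points, linear axis from 0, 1 panel per gene with its own scale), with bars at the group means. S100A8, S100A14 and S100P are visibly higher in both COUP-TFII siRNA arrays, and S100A6 and S100A9 are slightly lower.

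S100A8 and S100A9, whose products pair in calprotectin, moved in opposite directions, except under the housekeeping median centring, where S100A9 stood at 0.07 and did not pass. S100A8 was at 55.0 and 55.4 in the control arrays and at 118 and 88.4 in the COUP-TFII siRNA arrays. Both treated arrays were higher, and they differed from each other by more than the control arrays did. Only the treated arrays lay above the median of all genes (83.9). The log2 fold change was 0.73 ± 0.18 (SE, n = 2 against 2, limma adjusted p = 0.0179), with a 95% interval of 0.32 to 1.14. A further S100A8 probe set lay near the floor of the scale, at 4.41 and 6.56 against 1.27 and 4.99, and its groups overlapped. S100A8 lost its call whichever array was left out (adjusted p in limma = 0.127 and 0.132 without control replicates 1 and 2, 0.179 and 0.0579 without COUP-TFII siRNA replicates 1 and 2). With the mean of both probe sets the change was 0.28 (limma adjusted p = 0.306, in a range of 0.000649 to 0.306 over the alternatives).

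S100A9 was at 4019 and 3902 in the control arrays and at 3497 and 3278 in the COUP-TFII siRNA arrays. Both treated arrays were lower, by 14.5% in the mean. The log2 fold change was -0.23 ± 0.05 (SE, n = 2 against 2, limma adjusted p = 0.0118, range 3.97e-05 to 0.213 over the alternatives). Among the 4 fits with 1 array left out S100A9 passed only without COUP-TFII siRNA replicate 1 (limma adjusted p = 0.0338), and not without control replicate 1, control replicate 2 or COUP-TFII siRNA replicate 2 (0.165, 0.12 and 0.0852).

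Since both genes are strongly expressed in myeloid cells, markers of that lineage were read beside them. Of 10 measured myeloid markers 0 passed in limma, beside 23.1% of all genes. Of these markers 0 had an unadjusted p below 0.05, and all lay below the median of all genes. Their summed intensity was 241 to 283 in the control arrays and 284 to 295 in the COUP-TFII siRNA arrays. The leukocyte marker PTPRC was at 18.3 ± 1.3 and 20.1 ± 1.9 (SD, n = 2), LYZ at 16.1 ± 0.8 and 12.6 ± 3.4, and CD14 at 1.07 ± 0.0990 and 6.76 ± 0.997, in control and treated arrays. The groups did not overlap for 5 of the 10, beside 57.5% of all genes. CD14 and CSF3R were higher in both treated arrays, and LYZ, MPO and FPR1 were lower in both. The part of such low signals in the S100A8 result was not tested. Epithelial keratins were bright, KRT18 at 8954 ± 211 and 9819 ± 173. Prostate markers were uneven. KLK3 and KLK2 were at most 25.9 on every array, and FOLH1 and ACP3 were dim too and did not pass. TMPRSS2 rose from 144 ± 17.3 to 392 ± 0.594 (SD, n = 2), and SLC45A3 fell from 262 ± 36.3 to 142 ± 26.7.

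S100P, a dimeric S100 protein that binds and activates ezrin, was at 258 and 277 in the control arrays and at 536 and 397 in the COUP-TFII siRNA arrays. As for S100A8, both treated arrays were higher and COUP-TFII siRNA replicate 1 was the higher of them. It had the largest log2 fold change of the 10, 0.75 ± 0.13 (SE, n = 2 against 2, limma adjusted p = 0.00326), or 1.69-fold, which was 0.54 without that array and 0.96 without the other treated array. S100P did not pass without control replicate 1 or without control replicate 2. Its limma adjusted p ranged from 8.02e-13 to 0.0877 over the alternatives.

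S100A14, found mainly in epithelia, was at 3867 and 4049 in the control arrays and at 5325 and 5378 in the COUP-TFII siRNA arrays. The gap between the groups was several times the spread within either. The mean rose by 35.2%, or 0.43 ± 0.05 on the log2 scale (SE, n = 2 against 2, limma adjusted p = 0.000197), with a 95% interval of 0.33 to 0.54. S100A14 passed with each array left out, at log2 fold changes of 0.40 to 0.47, the only one of the 10 genes to do so. It failed only with 1 prior variance for all genes (limma adjusted p = 0.0646, in a range that began at 6.9e-20).

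**Figure D2:**
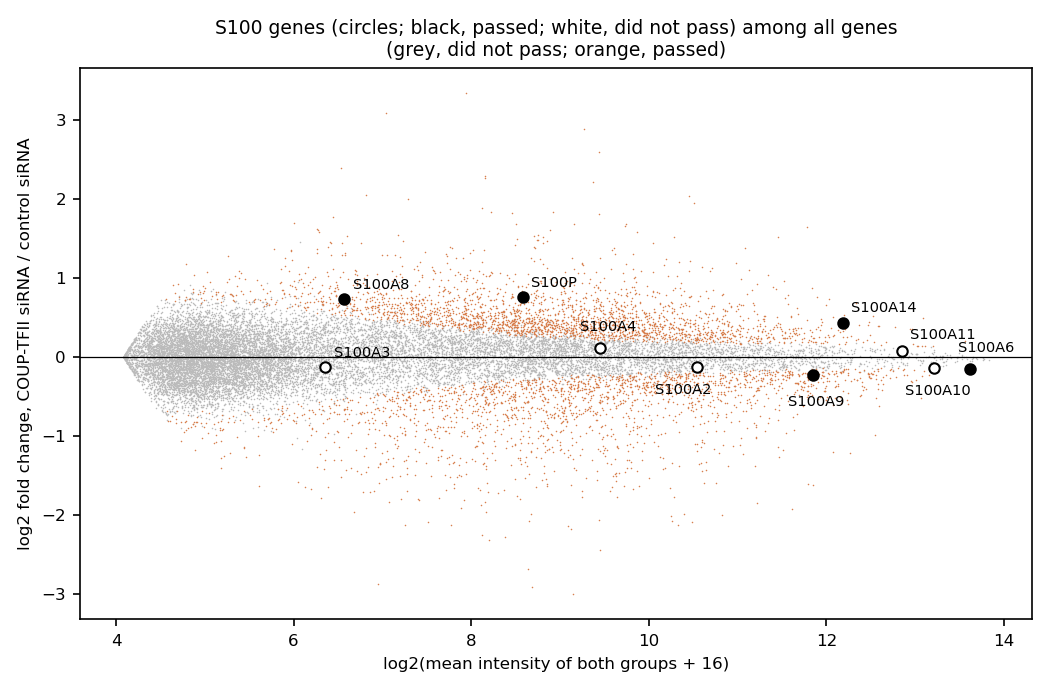
Log2 fold change of COUP-TFII siRNA over control siRNA against log2(mean intensity + 16), 1 point per gene, with the S100 genes as labelled circles (black, passed; white, did not pass). S100P and S100A8 have the largest differences of the 10, at 0.75 and 0.73, and the 10 lie inside the cloud of all genes.

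The promoters of the 5 genes called are shown because they include genes that moved together and a pair that moved apart. They are the 150 bases just before the annotated start, from RefSeq on GRCh38.p14, and capitals mark TATAAA, the core of a TATA box.
S100A8 (chr1:153391074-153391223, minus strand, the middle of 3 annotated starts): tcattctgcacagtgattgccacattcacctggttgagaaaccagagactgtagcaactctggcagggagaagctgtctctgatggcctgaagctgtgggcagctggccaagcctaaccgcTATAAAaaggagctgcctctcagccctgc
S100A9 (chr1:153357704-153357853, plus strand): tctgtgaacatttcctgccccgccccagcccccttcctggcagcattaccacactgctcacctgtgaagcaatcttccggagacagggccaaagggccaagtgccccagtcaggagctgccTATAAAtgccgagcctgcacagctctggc
S100P (chr4:6693728-6693877, plus strand): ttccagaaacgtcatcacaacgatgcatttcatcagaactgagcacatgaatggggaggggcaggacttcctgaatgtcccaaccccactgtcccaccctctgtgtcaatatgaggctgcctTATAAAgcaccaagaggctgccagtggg
S100A14 (chr1:153616326-153616475, minus strand): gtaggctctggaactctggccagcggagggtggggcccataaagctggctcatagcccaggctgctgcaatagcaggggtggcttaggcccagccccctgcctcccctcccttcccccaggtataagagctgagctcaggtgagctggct
S100A6 (chr1:153535992-153536141, minus strand): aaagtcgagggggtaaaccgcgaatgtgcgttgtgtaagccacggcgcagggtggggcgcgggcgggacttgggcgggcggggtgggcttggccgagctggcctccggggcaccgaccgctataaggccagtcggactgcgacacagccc

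In the full windows of 250 bases before to 50 after each start, all 10 genes had an entry, with 13 windows in all. TATAAA, searched on both strands, was in 5 of these windows, of S100A4, S100A8, S100A9 and S100P, and in 11.5% of the 35116 windows of all genes. It began 29 bases before the start in the S100A8 and S100A9 sequences above and 28 bases before it in S100P. Counted from another annotated S100A8 start the same letters began at -126, and the window of the remaining S100A8 start did not hold them. S100A4 held them 31 bases before its start. AGGTCA, the half-site bound by many nuclear receptors, was in 1 window, of S100A4, and in 13.8% of all. TGANTCA, an AP-1 site, was in S100A2 and S100A3 and in 7.71% of all. A match describes these letters only. CpG dinucleotides set 3 genes apart, with 32 in the S100A10 window, 31 in S100A6 and 22 in S100A11, against 2 to 8 in the other members and a median of 14 over all windows.

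The annexin-binding members S100A10, S100A11 and S100A6 were bright and changed little in the probe sets that represent them. S100A6, or calcyclin, was at 13034 and 13470 in the control arrays and at 11970 and 11909 in the COUP-TFII siRNA arrays, where both were lower. The log2 fold change was -0.15 ± 0.04 (SE, n = 2 against 2, limma adjusted p = 0.0234, range 3.46e-07 to 0.335 over the alternatives). It turned to 0.14 with the housekeeping median centring and then passed as higher (limma adjusted p = 0.00409). With the mean of both S100A6 probe sets it was -0.33. The dimmer S100A6 probe set was lower too, at 75.9 and 90.7 against 55.6 and 50.7, with a log2 fold change of -0.52 that did not pass when all probe sets were tested (limma adjusted p = 0.111). In that test 12.2% of 54613 probe sets were called (6.51% higher, 5.67% lower) and the brighter S100A6 probe set did not pass either (limma adjusted p = 0.0644). In the test over genes S100A6 lost its call whichever array was left out (adjusted p in limma = 0.159 and 0.296 without control replicates 1 and 2, 0.0978 and 0.105 without COUP-TFII siRNA replicates 1 and 2). The S100A6 intensities are close to the top of the scale, as the highest value on any array was 15482 to 15890.

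S100A10, or p11, a member that no longer binds calcium and holds annexin A2 in a tetramer, was at 9816 and 10024 in the control arrays and at 9248 and 8818 in the COUP-TFII siRNA arrays. The difference of -0.14 ± 0.04 (SE, log2 scale, n = 2 against 2) lay just outside the threshold (limma adjusted p = 0.052), and its 95% interval was -0.23 to -0.04. It passed as lower under 7 of 16 alternatives. With the housekeeping median centring it passed as higher, at 0.16 (limma adjusted p = 0.00217). A dimmer S100A10 probe set was at 117 and 140 against 96.2 and 113, also lower without overlap. Its log2 fold change of -0.26 did not pass when all probe sets were tested (limma adjusted p = 0.348). S100A11, a partner of annexin A1, was at 7182 and 7194 against 7613 and 7480, a log2 difference of 0.07 ± 0.04 (SE; limma adjusted p = 0.287) with an interval of -0.02 to 0.16. The S100A11 arrays did not overlap, but the gap was 4.99% of the control mean.

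The remaining members did not pass. S100A4, which binds the myosin heavy chain MYH9 and is known from metastasis, was at 631 and 687 in the control arrays and at 704 and 724 in the COUP-TFII siRNA arrays, a log2 difference of 0.11 ± 0.07 (SE; limma adjusted p = 0.331). S100A2, a nuclear member of basal epithelia, was at 1510 and 1561 against 1353 and 1462, a difference of -0.13 ± 0.06 (SE; limma adjusted p = 0.194). S100A3, a protein of the hair cuticle, was the only member below the median of all genes (83.9) in both groups. It was at 69.6 and 70.1 against 60.3 and 64.5, and its interval of -0.51 to 0.25 was the widest among these 3. Missing the threshold does not show that these genes were unaffected.

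In the wider family of 20 measured genes the 10 not listed above were mostly dim, with 8 of them below the median of all genes. Of the 10, 1 passed (10%, beside 23.1% of all genes). It was S100A13, which takes part in the release of proteins that lack a signal peptide, and it rose from 3347 ± 61.7 to 4538 ± 109 (SD, n = 2), or 0.44 ± 0.05 on the log2 scale (SE, limma adjusted p = 0.000204). S100A13 failed under 1 of 16 alternatives, 1 prior variance for all genes (limma adjusted p = 0.0632, range 2.06e-17 to 0.0632). S100A13 is the next S100 gene after S100A14 on chromosome 1, and their log2 fold changes were nearly equal, at 0.44 and 0.43. S100A16, the neighbour of S100A14 on the other side, was at 7847 ± 156 and 7302 ± 256 with a log2 difference of -0.10 ± 0.04 (SE, limma adjusted p = 0.144). With the housekeeping median centring it was 0.19 and passed as higher (limma adjusted p = 0.000867). S100A12, which lies between S100A9 and S100A8, was dim, and at 32.1 ± 17.9 and 19.6 ± 8.22 its groups overlapped. Of 16 measured genes of the epidermal differentiation complex beyond the S100 genes, 0 passed in limma, beside 23.1% of all genes. An unadjusted limma p below 0.05 was found for 0 of the 16. Their median was -0.16, and all 16 lay below the median of all genes, with no array above 76.8.

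**Figure D3:**
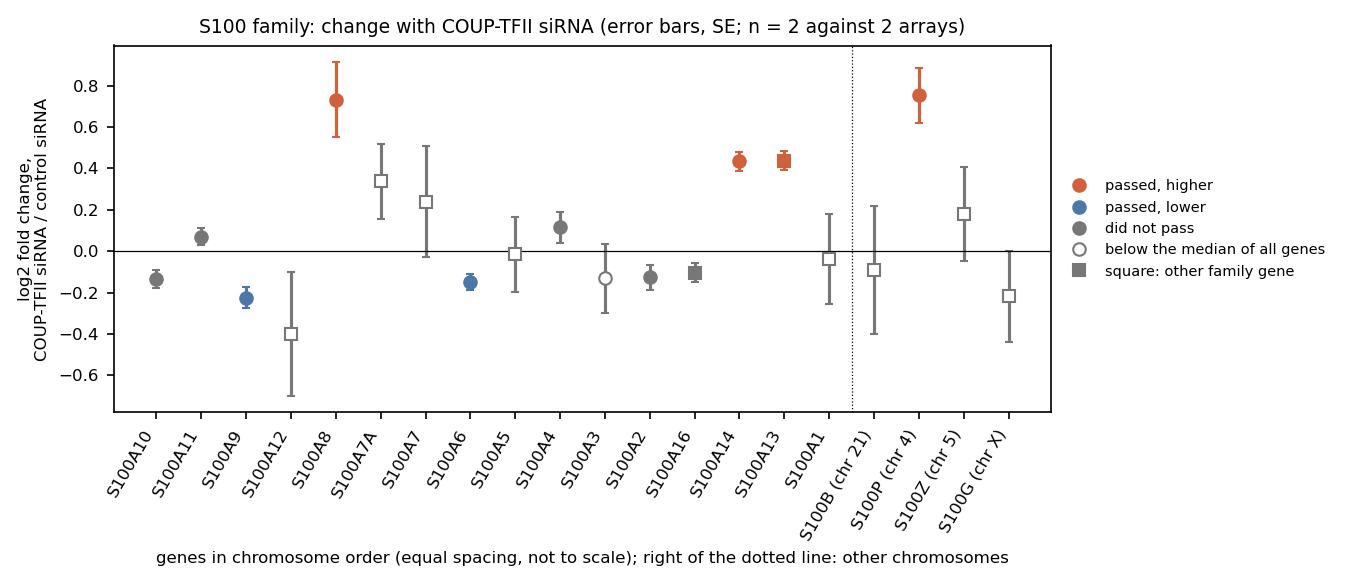
Log2 fold change with its SE for 20 S100 genes in chromosome order at equal spacing, with genes of other chromosomes to the right of the dotted line (red, passed as higher; blue, passed as lower; open, below the median of all genes). The neighbours S100A14 and S100A13 stand together at 0.43 and 0.44, between S100A16 at -0.10 and S100A1 at -0.04, and S100A9 at -0.23 and S100A8 at 0.73 lie on opposite sides of 0, unlike under the housekeeping median centring.

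Some partners of S100 proteins had larger differences than any of the 10 S100 genes. Among 19 measured annexin and scaffold partners the test called 4 as higher and 3 as lower, and their median was 0.04. That was 36.8%, beside 23.1% of all genes and 52.3% of those above an intensity of 1000. Of these 19 genes, 18 lay above the median of all genes. CACYBP, the S100A6-binding protein that links to ubiquitin ligases, fell from 1191 ± 24.6 to 643 ± 61.8 (SD, n = 2), or by -0.88 ± 0.08 on the log2 scale (SE, limma adjusted p = 6.34e-05). IQGAP1, a scaffold that S100P binds, fell from 1042 ± 108 to 401 ± 53.4, and MDM2, a ubiquitin ligase, fell from 649 ± 50.5 to 224 ± 16.4. MDM2 has 10 probe sets, and over their mean its log2 fold change was -0.52 in place of -1.47 (limma adjusted p = 0.0492, the highest over the alternatives, which began at 1.21e-47). MYH9, the S100A4 target, rose from 1770 ± 66.2 to 2345 ± 49.5, and MYH14, another non-muscle myosin, from 38.5 ± 3.75 to 89.2 ± 35.5. MYH14 kept its call without COUP-TFII siRNA replicate 1 (limma adjusted p = 0.0358) and lost it without control replicate 1, control replicate 2 or COUP-TFII siRNA replicate 2 (0.148, 0.211 and 0.207). It lay above the median of all genes only in the treated group, and its log2 fold change of 0.91 went to 0.25 with _x_at probe sets allowed and 0.34 with the mean of its probe sets, without a call (limma adjusted p = 0.304 and 0.175). With 1 prior variance for all genes MYH9 and MYH14 also lost their call (limma adjusted p = 0.0759 and 0.118). EZR, the S100P partner ezrin, was at 1600 ± 21.3 and 1790 ± 11.8 and did not pass (limma adjusted p = 0.0584), but it passed as higher under 5 of 16 alternatives (range 2.41e-05 to 0.303).

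The partner annexins ANXA1, ANXA2 and ANXA11 did not pass in the test over genes. Nor did ANXA5 and ANXA6 of the partner list, named after their values were seen. Their log2 fold changes were 0.06 and -0.20 (limma adjusted p = 0.467 and 0.0605). ANXA1, the S100A11 partner, was at 3203 ± 70.3 and 2974 ± 10.6 (SD, n = 2) and ANXA11, which S100A6 binds, at 4109 ± 78.6 and 4526 ± 85.4 (limma adjusted p = 0.158 and 0.0583). ANXA11 passed as higher under 7 of 16 alternatives, at 0.37 in place of 0.14 with the mean of its probe sets. Both dimmer ANXA11 probe sets passed as higher when all probe sets were tested, at 0.34 and 0.62 on the log2 scale. ANXA2, the S100A10 partner, was represented by a dim probe set at 22.9 ± 6.05 and 18.4 ± 6.56, because its 3 bright ones are open to cross-hybridisation. Those 3, looked up after this was seen, had log2 differences of -0.03, -0.04 and -0.04, and their groups overlapped. The S100A10 scaffold AHNAK was at 1080 ± 242 and 1187 ± 134, also with overlap.

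Receptors of secreted S100 proteins were mostly dim. AGER was at 14.5 ± 5.01 and 16.6 ± 5.49 and TLR4 at 30.3 ± 5.09 and 31.8 ± 14.4 (SD, n = 2), both far under the median of all genes, and neither passed. Of 11 measured receptors 1 fell and 1 rose (18.2%, beside 23.1% of all genes), with a median of 0.02. NPTN, the S100A8 receptor neuroplastin, fell from 6018 ± 220 to 2614 ± 170, or by -1.20 ± 0.06 on the log2 scale (SE, limma adjusted p = 2.68e-06), beside the rise of S100A8. The 1 that rose was ERBB4, named after its value was seen, and it was dim at 10.8 ± 8.92 and 40.7 ± 17.5.

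Genes of plasminogen activation, a reaction that S100A10 assists at the cell surface, included 4 that rose and 2 that fell among 10 measured, with a median of 0.22. That was 60%, beside 23.1% of all genes and 52.3% of those above an intensity of 1000. Of these 10 genes, 7 lay above the median of all genes. PLAT, tissue plasminogen activator, rose from 451 ± 58.6 to 1379 ± 5.28 (SD, n = 2), or by 1.58 ± 0.09 on the log2 scale (SE, limma adjusted p = 5.79e-06). SERPINE2, an inhibitor of that protease, rose from 1189 ± 8.03 to 2164 ± 186, while the urokinase receptor gene PLAUR fell from 1600 ± 14.4 to 1285 ± 82.9. PLAUR lost its call without control replicate 1, control replicate 2 or COUP-TFII siRNA replicate 2 (limma adjusted p = 0.103, 0.0962 and 0.053), and kept it without COUP-TFII siRNA replicate 1 (0.0209). Under the housekeeping median centring PLAUR went from -0.31 to -0.022 and did not pass (limma adjusted p = 0.767), nor did it with 1 prior variance for all genes (0.129).

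Other calcium sensors with EF hands moved in both directions, 5 of 23 higher and 5 lower, with a median of -0.04. That was 43.5%, beside 23.1% of all genes and 52.3% of those above an intensity of 1000. Of these 23 genes, 18 lay above the median of all genes. CALB1, calbindin, rose from 3159 ± 2.64 to 5006 ± 259 (SD, n = 2). RCN1, a calcium-binding protein of the endoplasmic reticulum, fell from 2126 ± 27.6 to 995 ± 45.9, and NUCB2, a nucleobindin, from 1141 ± 111 to 780 ± 103. NUCB2 lost its call without control replicate 1 or COUP-TFII siRNA replicate 2 (limma adjusted p = 0.104 and 0.0767) and with 1 prior variance for all genes (0.0998). With the mean of its probe sets it went from -0.54 to -0.30 and did not pass (0.0765). Among 7 measured squamous and basal markers 2 rose and 0 fell (0 also at an unadjusted limma p below 0.05), with a median of 0.08. The share called was 28.6%, beside 23.1% of all genes. Of these 7 genes, 3 lay above the median of all genes. The basal keratins KRT5 and KRT14, named after their values were seen, were dim and did not pass. KRT5 was at 1.055 ± 0.0778 and 2.655 ± 2.34, and KRT14 at 21.9 ± 4.78 and 19.0 ± 8.79. PKP1, a desmosome protein, rose from 724 ± 23.6 to 1095 ± 62.8, and KRT16, named after its value was seen, was dim at 19.4 ± 2.10 and 73.8 ± 13.05. Counting each gene of these 7 lists once, 17 of 96 rose and 11 fell, or 29.2%, against 23.1% of all genes. The lists were not matched to all genes in brightness.

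**Figure D4:**
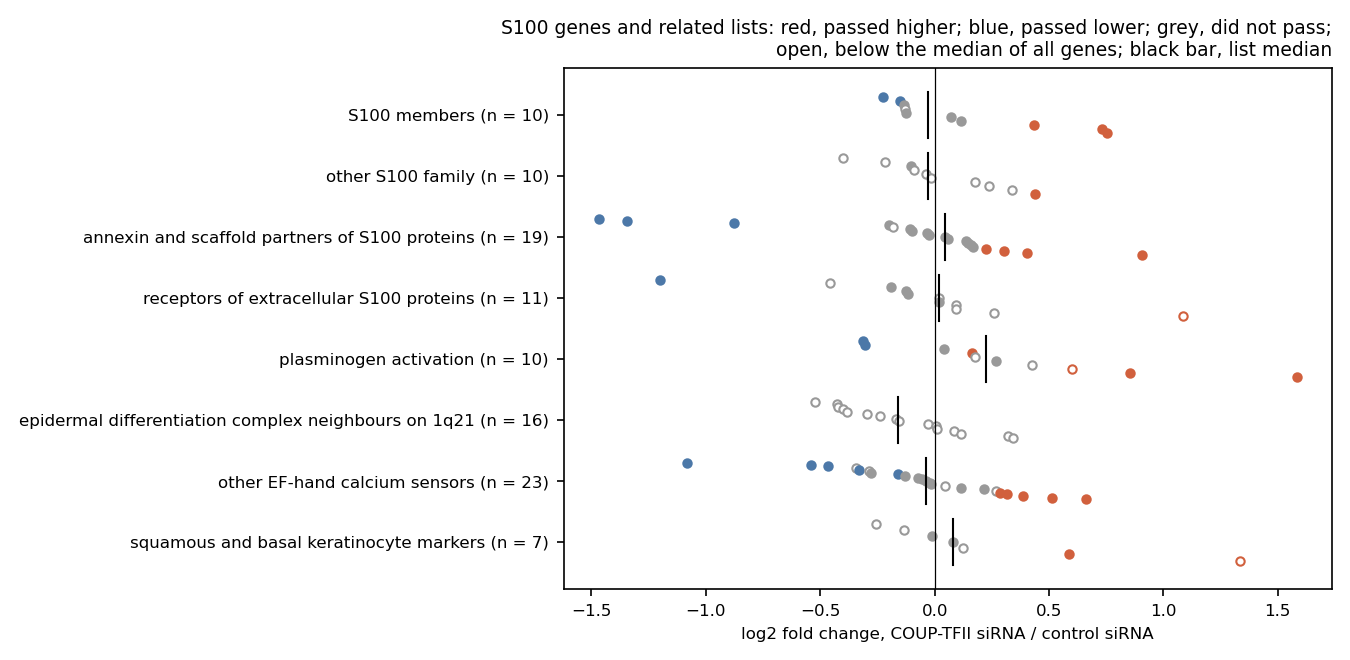
Log2 fold change of each measured gene (points) in the S100 set and 7 related lists, with the list median as a black bar (red, passed as higher; blue, passed as lower; open, below the median of all genes). IQGAP1 at -1.35 and PLAT at 1.58 reach further from 0 than any of the 10 S100 genes.

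The array medians were 31.7 to 32.9 and replicate arrays correlated at r = 0.987 and 0.988 across probe sets on the log2 scale, against 0.975 to 0.979 between groups. RNA integrity can be read from ACTB probe sets, whose 3′ to 5′ ratio was 1.52 and 1.83 under control siRNA and 1.42 and 1.46 under COUP-TFII siRNA. These groups did not overlap, and their part in the S100 results was not tested. For GAPDH the ratio was 0.957 and 0.986 against 0.994 and 0.986. Of markers of further cell types, 0 of 6 endothelial markers passed in limma (3 had an unadjusted p below 0.05) and 1 of 8 fibroblast markers did, and 6 measured prostate markers gave 1 rise and 1 fall. Of 8 epithelial markers 2 rose and 3 fell (62.5%), and of 12 housekeeping genes 2 rose and 2 fell (33.3%). The share was 23.1% over all genes and 52.3% over those above an intensity of 1000. A lower intensity in such a bulk sample can come from fewer cells that express a gene or from less RNA per cell, which cannot be told apart here. The smallest two-sided p of an exact permutation test at 2 arrays against 2 is 0.333.

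**Figure D5:**
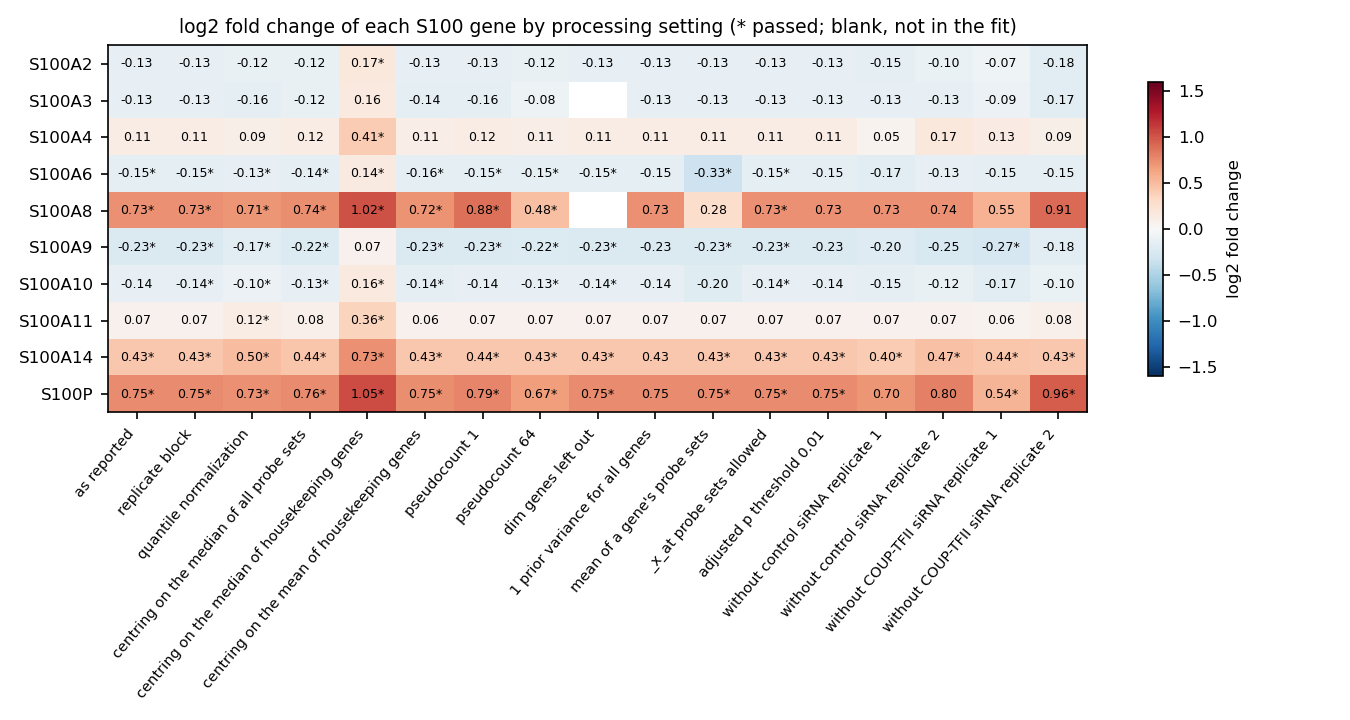
Log2 fold change of each of the 10 S100 genes (rows) under the reported setting and each alternative (columns), with a star where it passed and a blank for S100A3 and S100A8 where dim genes were left out. S100A14 and S100P keep a red shade in every column, between 0.40 and 0.73 and between 0.54 and 1.05, and the 5 genes below 0 turn above it in 1 column, the housekeeping median centring.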

How the data were processed

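Biotin-labelled RNA (3′ IVT kit, 1-colour Affymetrix arrays, per the labels' protocols) gave probe set intensities, deposited by the authors on a linear scale. How the probes were summarised and normalized is not given in the sources used here. Detection calls were not used, and precision is limited by having 4 arrays. Intensities were used as log2(value + 16), which understates changes of dim genes, without further scaling. The probe table named 1 gene for 41091 probe sets, several for 1801 and none for 11721, and 62 controls were left out. Symbols were updated through Entrez identifiers (41037 matched, RefSeq, GRCh38.p14). Each gene was represented by its single-gene probe set of highest mean log2 value, leaving out _x_at probe sets (open to cross-hybridisation) where another existed.

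Groups were compared with limma 3.58.1 in R 4.3.3 (lmFit, eBayes with an intensity trend, no replicate block, 8.85 degrees of freedom after moderation) and Benjamini-Hochberg adjustment over all genes, or over all probe sets. The code was tested on simulated data. The named genes were the 10 members, 11 partners and relatives, and from each of 7 lists (other S100 genes, annexin and scaffold partners, receptors, plasminogen activation, epidermal differentiation complex, other EF-hand sensors, squamous markers) up to 3 called genes of largest change that exceeded the all-gene median in their brighter group. Markers of prostate, epithelial, myeloid, fibroblast and endothelial cells and housekeeping genes were also read. Members and lists were chosen with earlier results of these data known. The target's own transcript and some list genes are not reported here. Alternatives covered the block, scaling, pseudocounts of 1 and 64, dim genes, prior variance, probe set choice, a threshold of 0.01 and leaving out every array once. A centring on the housekeeping genes' mean was chosen after seeing the data. Deviations from the group mean of same-numbered arrays correlated at r = 0.02 over genes. This does not settle whether same-numbered arrays shared a transfection or day. Figures were drawn with matplotlib 3.10.9.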

Additional observations from a re-analysis of the deposited data

How the results depend on the processing

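The 2 arrays per group limit every result here, and dim genes lie near the floor of the scale. S100A14 and S100P kept their direction under all 16 alternatives, S100A8 under all 15 that could be run (it was too dim for the filter on dim genes), and CACYBP, MDM2, IQGAP1, NPTN, PLAT, SERPINE2, CALB1, RCN1 and PKP1 kept direction and call under all 16, although the mean of a gene's probe sets lowered the size of MDM2 to -0.52, CACYBP to -0.57 and SERPINE2 to 0.56. The labels do not say that replicate numbers pair the arrays. With the replicate number as a block, 3 of the 10 S100 genes were higher and 3 lower, S100A10 passed at -0.14, 2 S100 probe sets passed as lower, and 2858 and 2274 of all genes passed as higher and lower.

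The housekeeping median centring moved the median of those genes from -0.04 to 0.26. It gave 8 S100 genes higher and 0 lower, 7 and 0 S100 probe sets, 41 and 7 list genes, and 7453 and 945 of all genes. It reversed S100A2 (0.17), S100A3 (0.16), S100A6 (0.14), S100A9 (0.067), S100A10 (0.16), S100A16 (0.19), ANXA1 (0.19), ANXA2 (0.11) and the dimmer probe sets of S100A8 (0.12) and S100A10 (0.031). Of the genes reversed, S100A2, S100A6, S100A10, S100A16 and ANXA1 passed as higher. S100A4 (0.41) and S100A11 (0.36) also passed as higher. Centring on the housekeeping genes' mean, chosen after seeing the data, left S100A10 passing at -0.14 with 3 S100 probe sets lower, and centring on all probe sets gave -0.13 and 3. Quantile normalization gave -0.10 for S100A10 and 0.12 for S100A11, which both passed, with 2 probe sets lower. S100A10 also passed at -0.13 with a pseudocount of 64 (2 probe sets lower), and at -0.14 with dim genes left out (4 probe sets lower) or _x_at probe sets allowed.

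With 1 prior variance for all genes, 0 S100 genes and 0 S100 probe sets passed in either direction, as did 6 and 5 list genes and 767 and 822 of all genes as higher and lower. S100A6 (-0.15), S100A8 (0.73), S100A9 (-0.23), S100A14 (0.43) and S100P (0.75) then lost their call, as did S100A13, MYH9, MYH14, PLAUR and NUCB2 among the other genes named. At a threshold of 0.01, S100A6 (-0.15), S100A8 (0.73) and S100A9 (-0.23) lost it, so that 0 S100 genes were lower, 1 S100 probe set was higher and 0 lower, 11 list genes were higher, and 1457 and 1324 of all genes passed. With the mean of a gene's probe sets S100A8 lost it at 0.28, S100A6 kept it at -0.33, 1631 of all genes were higher, and AHNAK (-0.38) and ANXA1 (0.057) reversed.

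With 1 array left out, 1 to 2 S100 genes were higher and 0 to 1 lower, as were 0 to 2 and 0 S100 probe sets, 9 to 11 and 7 to 10 list genes, and 865 to 1231 and 875 to 1373 of all genes. Log2 fold changes then ran from -0.17 to -0.13 for S100A6, 0.55 to 0.91 for S100A8, -0.27 to -0.18 for S100A9 and 0.54 to 0.96 for S100P, and across 0 for ANXA2 (-0.38 to 0.014), AHNAK (-0.080 to 0.37), AGER (-0.078 to 0.27) and TLR4 (-0.29 to 0.33). The cause of these shifts was not tested.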
